A study of Mus musculus with 14 samples.

Results

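Asb2, 4 shared parts of the ubiquitin ligase that it joins and 2 of its filamin targets were followed in poly(A) RNA of mouse tibialis anterior, the muscle at the front of the shin. The genes were taken by symbol, namely Asb2, Cul5, Rnf7, Tceb1, Tceb2, Flna and Flnc, and all 7 were found among the 24359 genes listed per library. The muscles came from C57Bl/6 mice and were either treated with follistatin, a secreted protein that binds myostatin and activins, or were controls. Day 3 held 4 follistatin and 3 control libraries, day 7 held 2 and 2, and day 14 held 2 and 1. Days 7 and 14 were joined as a chronic set of 4 follistatin and 3 control libraries, as in the study's own grouping. The labels leave out the route and form of the follistatin, the treatment of the controls, and the age and sex of the mice. Nothing says that replicates came from different mice, so every p-value rests on the spread among libraries, which may be technical. Levels are FPKM, fragments per kilobase of transcript scaled by the authors for library size. Levels of different genes can thus be set side by side, within limits given below for single genes and libraries.

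Asb2 is an ankyrin repeat protein with a SOCS box, the segment by which it docks onto the Elongin B and Elongin C pair (Tceb2 and Tceb1, now also called Elob and Eloc). That pair joins it to the scaffold Cullin-5 (Cul5), which carries the RING protein Rnf7, and the assembled ligase attaches ubiquitin to the substrate that Asb2 holds. Filamins, long proteins that crosslink actin, are the best known Asb2 substrates. Flnc is the filamin of striated muscle, found at Z-discs and costameres, and Flna is the widely expressed filamin, abundant in vessel wall and connective tissue cells. The ligase acts on protein, while these data measure only mRNA.

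Fst mRNA was at 49.7 FPKM or more in each follistatin library and at 1.42 FPKM or less in each control library, which matches the treatment label of every library. In follistatin libraries it was at 49.7 to 67.8 FPKM at day 3, and at 367 and 407 FPKM at day 7. At day 14 it was at 1315 and 1421 FPKM, so the joined days 7 and 14 differed in Fst level. Summed FPKM ranged from 364513 to 532859 among libraries. At day 3, 7 fast myofibre markers summed to between 51630 and 59780 FPKM in follistatin libraries and between 55330 and 60600 FPKM in controls, as the tissue label requires. For days 7 and 14 all 10 such markers were marked by the authors as holding too many reads to estimate, and they were not used. Control day 7 replicate 1 stood apart, with 16158 genes detected, where the remaining chronic libraries had 19383 to 20283. Follistatin day 7 replicate 1 and follistatin day 14 replicate 2 stood apart in another way. Relative to the controls, their transcripts under 1500 bases lay higher than those over 5000 bases by a median of 0.57 and 0.69 on the log2 scale. In the other 5 chronic libraries this difference lay between -0.050 and 0.065. This shift of length is given below beside those of the 7 genes whose values lay apart in these libraries, and beside each list of genes whose calls changed without them.

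Asb2 mRNA fell in follistatin muscle at day 3 and again at days 7 and 14, and it was the only one of the 7 genes that passed the test in either set. At day 3 Asb2 had 31.7, 36.6, 33.2 and 39.9 FPKM in follistatin libraries 1 to 4, against 125, 111 and 118 FPKM in control libraries 1 to 3. The highest follistatin library lay far below the lowest control. The mean was 35.4 ± 3.63 FPKM (SD, n = 4) in follistatin libraries and 118 ± 6.85 FPKM (SD, n = 3) in controls, so that follistatin muscle held 29.9% of the control level. On log2(FPKM + 1) the difference was -1.72 (SE 0.09, 95% interval -1.92 to -1.51, limma, Benjamini-Hochberg adjusted p = 0.00012). By p-value Asb2 ranked 3 among the 11268 genes tested, and by log2 fold change it ranked 51 from the lowest.

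In the chronic set Asb2 had 53.4 and 35.0 FPKM in the follistatin libraries of day 7, against 165 and 188 FPKM in the controls of day 7. At day 14 the follistatin libraries held 43.0 and 30.6 FPKM, against 198 FPKM in the single control. Within each day the follistatin libraries lay below every control, without overlap. The chronic mean was 40.5 ± 10.02 FPKM (SD, n = 4) in follistatin libraries and 184 ± 16.9 FPKM (SD, n = 3) in controls, or 22.0% of the control level. The log2 difference was -2.18 (SE 0.19, 95% interval -2.62 to -1.74, adjusted p = 0.00266). It was -2.17 with day as a covariate (adjusted p = 0.0075), while day 7 taken alone, with 2 libraries against 2, gave -2.001 and an adjusted p of 0.0714. Without both libraries whose long transcripts were low it was -2.21 (adjusted p = 0.00575). In bulk RNA, fewer cells of a type and less RNA per cell cannot be told apart.

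Read against the background, 1 of the 7 genes was called at day 3, where 1.49% of all genes tested were called, and 1 of 7 in the chronic set, where 5.5% were called. At an unadjusted p under 0.05 the counts were 2 of 7 at day 3, where 15.2% of all genes stood, and 3 of 7 in the chronic set, where 28.3% stood. The median log2 fold change of the 7 genes was 0.09 at day 3, beside 0.01 over all genes, and 0.09 in the chronic set, beside -0.09 over all genes.

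**Figure D1:**
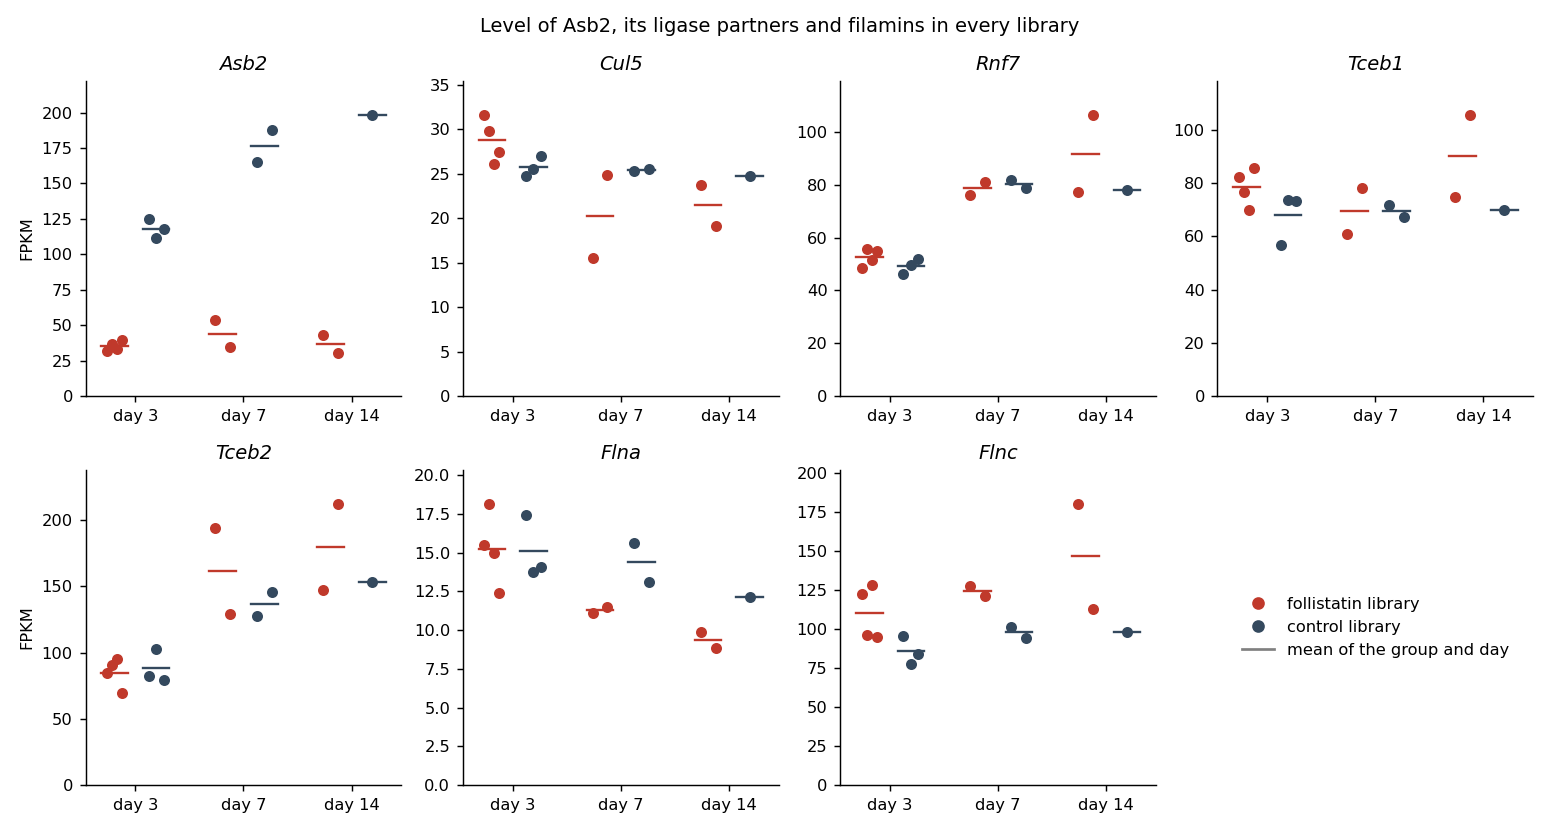
FPKM of the 7 genes (vertical axes, from 0) in each library at days 3, 7 and 14, with follistatin libraries in red left of control libraries in dark blue, points as libraries and bars as the mean of a group and day. Asb2 in follistatin libraries stays between 30.6 and 53.4 FPKM at all 3 times, below all 6 controls, while the ligase partners overlap between the groups.

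Whether the Asb2 effect differed between the sets was tested over all 14 libraries. Fst in follistatin libraries averaged 57.6 FPKM at day 3 and 878 FPKM in the chronic set. Time and Fst level therefore cannot be told apart here. The chronic effect was lower than the day 3 effect by 0.47 on the log2 scale (SE 0.22, 95% interval -0.94 to 0.01, unadjusted p = 0.0526, adjusted p = 0.341), which did not pass. None of the 7 genes passed this test of the difference by limma, against a background of 0.0884% of genes called, and 1 of 7, Cul5, had an unadjusted p under 0.05, as did 14.8% of all genes. The controls themselves stood at different levels, 184 FPKM in the chronic set and 118 FPKM at day 3, but the authors compared the sets in separate tables and nothing in the sources used here says that they were scaled together. All genes had a median difference of -0.11 in this comparison, and rescaling by the median ratio brought it to 0.0045 and that of Asb2 to -0.34.

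**Figure D2:**
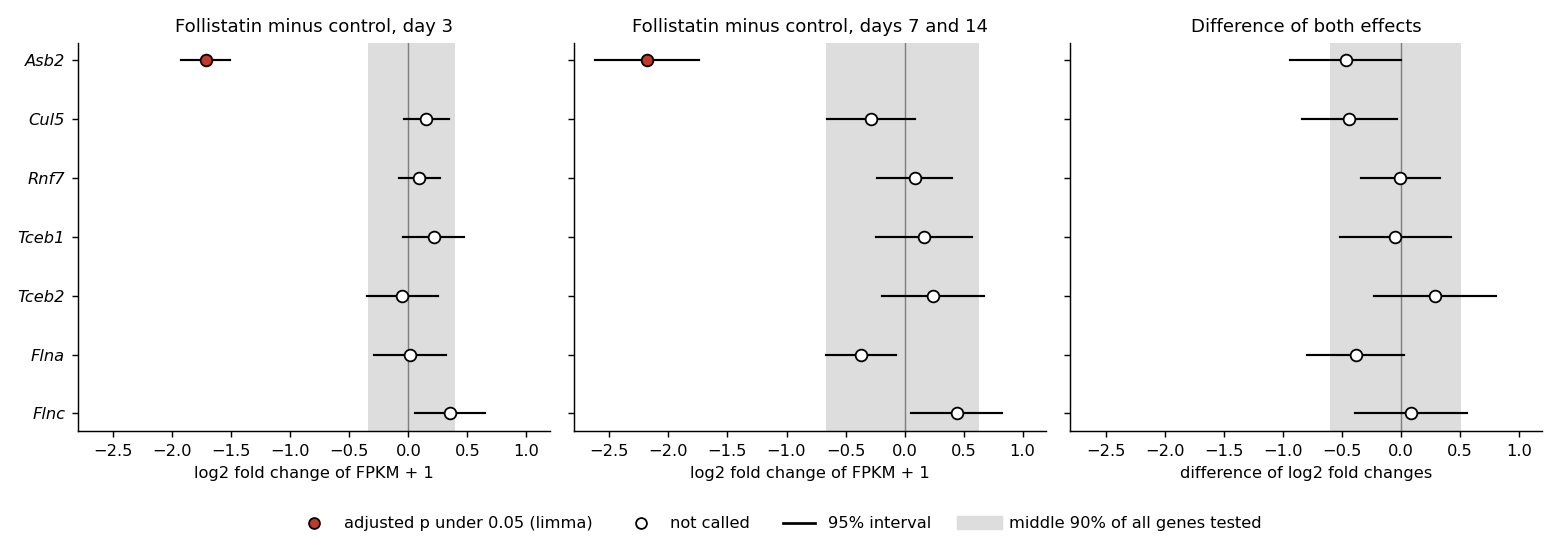
Log2 fold changes of the 7 genes at day 3 (left) and at days 7 and 14 (middle), and the difference of both (right), with 95% intervals as lines and the middle 90% of all genes tested as a grey band. Only Asb2, at -1.72 and -2.18, passed the test (red), and the intervals of the other 6 genes lie within 0.83 of 0 in the first 2 panels.

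Asb2 lies on chromosome 12, 103321142 to 103356001, on the minus strand of GRCm38 (mm10). GENCODE M21 gives it 2 protein-coding transcripts with separate starts. Asb2-201 has 10 exons and 2690 bases, and Asb2-204 starts inside the gene and has 8 exons and 2283 bases. The FPKM are per gene, so the fall cannot be assigned to either start. The 250 bases before both RefSeq starts are shown because Asb2 is the gene that fell and its starts are not separated by these data. They are written 5′ to 3′ on the minus strand (RefSeq, GRCm38.p6), at chr12:103356002-103356251 for the first and chr12:103338391-103338640 for the second, with E-boxes (CANNTG, the motif bound by myogenic and other basic helix-loop-helix factors) in capitals.
Asb2 upstream of the first start: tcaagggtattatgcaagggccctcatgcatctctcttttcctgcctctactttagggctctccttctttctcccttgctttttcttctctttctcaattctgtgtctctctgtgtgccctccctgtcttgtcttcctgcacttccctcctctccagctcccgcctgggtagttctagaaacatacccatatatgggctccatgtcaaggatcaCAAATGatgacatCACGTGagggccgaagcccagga
Asb2 upstream of the second start: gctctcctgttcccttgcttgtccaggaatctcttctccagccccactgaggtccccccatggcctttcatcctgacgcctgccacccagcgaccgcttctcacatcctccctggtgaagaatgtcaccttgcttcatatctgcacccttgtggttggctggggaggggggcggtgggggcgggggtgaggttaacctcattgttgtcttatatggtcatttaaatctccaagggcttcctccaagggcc
Both strands were searched for CANNTG, its CAGCTG form, the forkhead core GTAAACA, the short SMAD element GTCTG and the GC box GGGCGG. The first window held 2 E-boxes, CAAATG at 36 and CACGTG at 23 bases before the start, and none of the other motifs. The second held no E-box and 2 GC boxes, at 82 and 73 bases before its start, and none of the others. Over 32851 promoter windows of the same length, 66.2% held a CANNTG, 13% a CAGCTG, 3.17% a GTAAACA, 42.2% a GTCTG and 32.7% a GGGCGG. An E-box in such a window is therefore common.

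None of the 4 ligase partners passed the test in either set. Cul5, the scaffold on which the ligase is built (chromosome 9, 53614582 to 53670014, minus strand), had 31.6, 29.8, 26.1 and 27.4 FPKM in follistatin libraries 1 to 4 of day 3, against 24.7, 25.5 and 27.0 FPKM in controls. The groups overlapped, and the log2 difference was 0.15 (95% interval -0.04 to 0.34, adjusted p = 0.447). In the chronic set Cul5 had 15.5 and 24.9 FPKM in follistatin libraries of day 7 and 23.8 and 19.1 FPKM in those of day 14, against 25.3 and 25.5 FPKM in controls of day 7 and 24.7 FPKM in that of day 14. The 2 lowest values, 15.5 and 19.1 FPKM, were those of the 2 libraries with low long transcripts, and the Cul5 transcript has 5945 bases. The chronic difference was -0.28 (95% interval -0.66 to 0.09, adjusted p = 0.281), and -0.05 without those libraries. Cul5 shares 110 exon bases with Gm16124 on the opposite strand, and the strand setting of the libraries is not given in the sources used here.

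Rnf7, the RING subunit that recruits the ubiquitin-conjugating enzyme (chromosome 9, 96470937 to 96478675, minus strand), had 48.4 to 55.6 FPKM in follistatin libraries of day 3, against 46.3 to 51.9 FPKM in controls. The log2 difference was 0.09 (95% interval -0.08 to 0.26, adjusted p = 0.633). In the chronic set 3 follistatin libraries lay between 76.1 and 81.2 FPKM, beside controls at 78.0 to 81.6 FPKM. The exception was follistatin day 14 replicate 2 at 106 FPKM, one of the libraries in which short transcripts were high, and the Rnf7 transcript has 1232 bases. The other such library, follistatin day 7 replicate 1, held the lowest follistatin value, 76.1 FPKM, so the 2 lay on opposite sides of the controls. Stretches of Rnf7 are near-identical to other transcripts, at 96.9% over 326 bases with a retained-intron transcript of Emb, so its FPKM is uncertain to the extent that such reads were shared out.

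Tceb1 and Tceb2 encode the Elongin C and Elongin B linkers that hold the SOCS box. Tceb1 (chromosome 1, 16641725 to 16657042, minus strand) had 69.7 to 85.8 FPKM in follistatin libraries of day 3, against 56.7 to 73.7 FPKM in controls. The log2 difference was 0.21 (95% interval -0.04 to 0.47, adjusted p = 0.422). Tceb1 in the chronic set had 61.0 and 78.3 FPKM in follistatin libraries of day 7 and 74.7 and 106 FPKM in those of day 14, against 67.3 to 71.8 FPKM in controls (0.17, 95% interval -0.24 to 0.57, adjusted p = 0.544). Of the 4 follistatin libraries 3 lay above every control and 1 below. The lowest and the highest were the 2 libraries with a shift of length, and without both the difference was 0.13 (adjusted p = 0.259).

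Tceb2 (chromosome 17, 23824738 to 23829136, minus strand) had 69.1 to 95.2 FPKM in follistatin libraries of day 3, against 79.0 to 103 FPKM in controls (log2 difference -0.05, adjusted p = 0.897). In the chronic libraries it had 194 and 129 FPKM in follistatin libraries of day 7 and 147 and 213 FPKM in those of day 14, against 128, 146 and 153 FPKM in the 3 controls. The 2 highest values, 194 and 213 FPKM, came from the libraries in which short transcripts were high, and the Tceb2 transcript, with 537 bases, is the shortest of the 7. The difference was 0.24 (95% interval -0.19 to 0.67, adjusted p = 0.419), and -0.04 without both libraries. The authors' locus for Tceb2 begins at 23803187, beyond the annotated end of the gene at 23824738, where its neighbour Srrm2 lies, and 3 processed pseudogenes resemble it at 95.7% identity or more, so its level is uncertain.

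**Figure D3:**
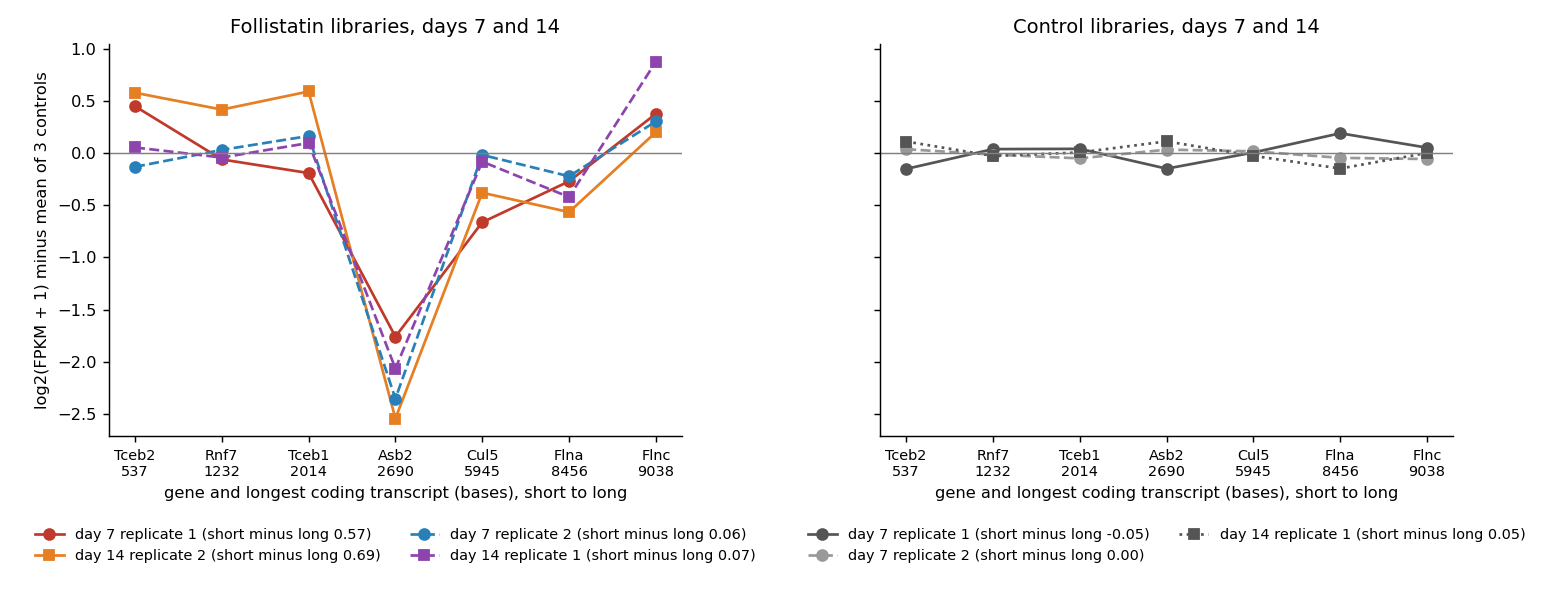
Deviation of each chronic library from the mean of the 3 controls on log2(FPKM + 1) (vertical axis) for the 7 genes, ordered by the length of their longest coding transcript (horizontal axis), in follistatin libraries (left) and controls (right). Solid lines on the left are the 2 libraries with a shift of length (0.57 and 0.69), in which Tceb2 lay high and Cul5 low, while Asb2 lay low in all 4 follistatin libraries.

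The 2 filamins lay on opposite sides of the controls in the chronic set, but neither passed the test. Groups that do not overlap were common in that set, at 30.4% of all genes tested. Flnc (chromosome 6, 29433256 to 29461883, plus strand) had 122, 96.4, 128 and 94.97 FPKM in follistatin libraries 1 to 4 of day 3, against 95.9, 77.4 and 84.1 FPKM in controls. One follistatin library, at 94.97 FPKM, lay just below the highest control. The mean was 110.5 ± 17.3 FPKM (SD, n = 4) in follistatin libraries and 85.8 ± 9.35 FPKM (SD, n = 3) in controls. The log2 difference was 0.35 (SE 0.13, 95% interval 0.06 to 0.65, unadjusted p = 0.0246, adjusted p = 0.242). The authors' deposited table gives a log2 fold change of 0.33 with a q-value of 0.0345 for this gene, so that it passes 0.05 in their test and not in that of limma.

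Over days 7 and 14 Flnc had 128 and 121 FPKM in follistatin libraries of day 7 and 180.6 and 113 FPKM in those of day 14, against 102, 94.1 and 98.1 FPKM in controls. All 4 follistatin libraries lay above all controls. The mean was 135.5 ± 30.7 FPKM (SD, n = 4) in follistatin libraries and 97.9 ± 3.75 FPKM (SD, n = 3) in controls, a log2 difference of 0.44 (SE 0.17, 95% interval 0.05 to 0.83, adjusted p = 0.137). The Flnc transcript has 9038 bases, and its smallest deviation from the controls, 0.20, was in follistatin day 14 replicate 2. In the other shifted library, follistatin day 7 replicate 1, the deviation was 0.38, above the 0.30 of follistatin day 7 replicate 2. With each library centred within bins of transcript length the difference was 0.72 and passed (adjusted p = 0.0318). Without the 2 shifted libraries it was 0.59 and did not (adjusted p = 0.0858). The authors' deposited table gives 0.46 with a q-value of 0.0761.

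Flna (chromosome X, 74223461 to 74249820, minus strand) had 15.5, 18.2, 15.0 and 12.4 FPKM in follistatin libraries 1 to 4 of day 3, against 17.4, 13.7 and 14.1 FPKM in controls. The groups overlapped throughout (log2 difference 0.01, 95% interval -0.29 to 0.32, adjusted p = 0.98). Among chronic libraries Flna had 11.1 and 11.5 FPKM in follistatin libraries of day 7 and 9.88 and 8.84 FPKM in those of day 14, against 15.6, 13.1 and 12.2 FPKM in controls. All 4 follistatin libraries lay below all controls, and the difference was -0.37 (SE 0.13, 95% interval -0.66 to -0.08, unadjusted p = 0.0197, adjusted p = 0.112). Centring within length bins brought it to -0.09, and leaving out both shifted libraries to -0.32. The authors' deposited table gives -0.42 with a q-value of 0.0772.

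Flna is also a gene of vessel walls, and the summed levels of vessel markers were lower in chronic follistatin libraries as well. At days 7 and 14, 13 smooth muscle and pericyte markers summed to between 92.6 and 186 FPKM in follistatin libraries and between 231 and 286 FPKM in controls, with none of them at 0. Of the 12 tested, 0 were called by limma and 9 had an unadjusted p under 0.05 (28.3% of all genes did), with a median log2 fold change of -0.69, beside -0.09 over all genes. The 10 endothelial markers summed to between 101 and 176 FPKM in follistatin libraries and between 195 and 251 FPKM in controls. Of these, 1 was called lower, where 5.5% of all genes were called, and 8 had an unadjusted p under 0.05. Their median was -0.58, with 0 of 10 above 0. The count called was 0 with any 1 control left out or without follistatin day 14 replicate 1, 3 without follistatin day 7 replicate 1, 2 without follistatin day 14 replicate 2, and 4 without both shifted libraries. Over all genes, 43 were called without control day 7 replicate 1 and 1216 without both shifted libraries, against 608 with every library kept. The 8 fibroblast markers overlapped, at 477 to 782 FPKM in follistatin libraries and 509 to 889 FPKM in controls, and 10 leukocyte markers summed to between 50.5 and 177 FPKM in follistatin libraries and between 32.4 and 93.3 FPKM in controls, with Ms4a1 at 0 in some libraries. Their part in the Flna values was not tested. At day 3, where the Flna groups overlapped, smooth muscle markers summed to between 277 and 345 FPKM in follistatin libraries and between 339 and 363 FPKM in controls. Of the 12 tested then, 0 were called and 5 had an unadjusted p under 0.05, with a median of -0.205, beside 0.012 over all genes. The endothelial sums did not overlap at day 3, at 163.5 to 184 FPKM in follistatin libraries and 193.7 to 211 FPKM in controls. Of these 10 markers 0 were called by limma and 3 had an unadjusted p under 0.05, beside 15.2% of all genes, with a median of -0.185.

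The groups of 1 of the 7 genes did not overlap at day 3, where this held for 15.1% of all genes, and those of 3 of 7 in the chronic set, where it held for 30.4%. By the authors' deposited tables, 2 of the 7 genes had a q-value under 0.05 at day 3, among 6.25% of the genes they tested, and 1 of 7 in the chronic set, among 17.8%. In both sets Asb2 was called by the authors' test as well, at -1.78 (q-value 0.00191) for day 3 and -2.17 (q-value 0.000894) for the chronic set in their deposited tables.

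The fall of Asb2 reordered the levels within the ligase. In controls Asb2 was the highest of the 7 genes in both sets, and its range overlapped that of no other. In follistatin muscle it stood above only Cul5 and Flna. The place of Tceb2, next below Asb2 in controls, is uncertain for the reasons given above. The ratio of Asb2 to Cul5 FPKM was 1.00 to 1.46 in follistatin libraries of day 3 and 4.36 to 5.06 in controls. At days 7 and 14 it was 1.41 to 3.43 in follistatin libraries and 6.53 to 8.02 in controls, the upper value of 3.43 being that of a library with low long transcripts. The ratio of Flnc to Flna, both long transcripts, was 5.30 to 8.57 in follistatin libraries of day 3 and 5.50 to 5.97 in controls. In the chronic libraries the ranges were apart, at 10.5 to 18.3 in follistatin libraries and 6.50 to 8.07 in controls. Among neighbours in the order of levels, Flnc and Tceb2, and Tceb2 and Tceb1, overlapped in follistatin libraries of day 3, and Tceb2 and Flnc overlapped in controls of day 3. Over days 7 and 14 Tceb2 and Flnc, and Rnf7 and Tceb1, overlapped in follistatin libraries, and no neighbours overlapped in controls.

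Neither list of general Cullin ligase genes held a called gene. For these and the lists below, 1.49% of all genes tested were called at day 3 and 5.5% in the chronic set. At an unadjusted p under 0.05 stood 15.2% and 28.3% of all genes. Leaving out libraries changed the calls over all genes too. Without both shifted libraries 1216 genes were called, against 608 with every chronic library kept, and without control day 7 replicate 1 there were 43. At day 3, 39 genes were called without control replicate 1, against 168 with every library kept. Of 29 genes of the neddylation cycle, which switches Cullins on and off, 0 were called by limma in either set, with 4 at an unadjusted p under 0.05 at day 3 and 3 in the chronic set. Their median was 0.12 at day 3 and 0.01 in the chronic set. Without both shifted libraries, 1 was called higher, Dcun1d1, a ligase that helps attach Nedd8 (0.44, adjusted p = 0.0402), and 1 also without follistatin day 7 replicate 1 alone. Of 12 other Cullins, RING subunits and Elongin users, 0 were called in either set, with 1 at an unadjusted p under 0.05 in each, and medians of 0.06 and -0.10. Among 17 other SOCS box adaptors 0 were called at day 3, with 2 at an unadjusted p under 0.05. At days 7 and 14, 1 was called, Spsb2, an adaptor that targets inducible nitric oxide synthase, at 5.46 ± 0.278 FPKM (SD, n = 4) in follistatin libraries and 1.72 ± 0.185 FPKM (SD, n = 3) in controls (log2 difference 1.25, adjusted p = 0.00155). Spsb2 stayed called under 19 of 20 alternatives, all but day 7 alone. Without both shifted libraries Socs7 was called lower as well (adjusted p = 0.0407), and without follistatin day 7 replicate 1 alone 2 adaptors were.

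Other ankyrin repeat SOCS box genes, which use the same partners as Asb2, were called in both directions. Of the 15 tested, Asb5 rose and Asb15 fell at day 3, and 5 fell and 0 rose in the chronic set, with a median of -0.47 beside -0.09 over all genes. Over all genes tested 1.49% were called at day 3 and 5.5% in the chronic set. At an unadjusted p under 0.05 stood 4 of 15 at day 3 and 7 of 15 in the chronic set, beside 15.2% and 28.3% of all genes. Asb15 had 14.3 to 17.0 FPKM in follistatin libraries of day 3, against 22.9 to 26.7 FPKM in controls (-0.65, adjusted p = 0.0133). At days 7 and 14 Asb15 had 3.55 to 6.02 FPKM in follistatin libraries, against 14.3 to 16.7 FPKM in controls (-1.58, adjusted p = 0.00655). It is the one other gene of this family called in both sets. Asb11 averaged 36.4 ± 7.70 FPKM in chronic follistatin libraries (SD, n = 4) and 74.1 ± 9.12 FPKM in controls (SD, n = 3), and Asb14 averaged 41.96 ± 2.78 FPKM in those follistatin libraries and 72.8 ± 4.94 FPKM in those controls. Without control day 7 replicate 1 the chronic count fell to 1 lower, with 0 higher, and that gene was Asb15 (adjusted p = 0.0386). Calls over all genes fell from 608 to 43 in that fit. The count of this family was 2 lower without control day 7 replicate 2 and 1 lower without the control of day 14. Without both shifted libraries 4 were lower and 1, Asb12, was higher (0.31, adjusted p = 0.047), and the median was -0.22. At day 3 the Asb15 call was lost without control replicate 1 or 3, and calls over all genes fell from 168 to 39 without replicate 1. Asb5 averaged 222 ± 20.7 FPKM in follistatin libraries of day 3 (SD, n = 4) and 161 ± 6.10 FPKM in controls (SD, n = 3), a difference of 0.46 (adjusted p = 0.0319) that stayed called under 8 of 18 alternatives. It was lost with quantile normalization, with centring by length and with any 1 control left out, among others.

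Genes around the filamins gave a mixed picture. Of 6 other reported Asb2 substrates, 0 were called by limma in either set, with 1 at an unadjusted p under 0.05 at day 3 and 3 in the chronic set. At day 3 their median was -0.14, beside 0.01 over all genes, with 0 of 6 above 0. In the chronic set the median was -0.36, beside -0.09, with 1 of 6 above 0, and it was -0.16 with centring by length. A mean of 5 FPKM or more was reached there by 2 of the 6, whose median was -0.115, beside -0.063 over all genes at that level. Des, the muscle intermediate filament desmin, was at 1025 FPKM in chronic follistatin libraries and 825 FPKM in controls on average (adjusted p = 0.288). Of 15 muscle filamin partners tested at day 3, Xirp1, an actin-binding repeat protein of stressed muscle, was called higher, at 23.5 to 31.5 FPKM in follistatin libraries and 16.0 to 18.8 FPKM in controls (0.66, adjusted p = 0.0373). This call held under 8 of 18 alternatives, and was lost with quantile normalization, with any 1 control left out, and without follistatin replicate 1, 2 or 3. Of 14 tested in the chronic set 0 were called by limma, with 5 at an unadjusted p under 0.05. Without both shifted libraries, where 1216 genes were called over all genes, Xirp1 was called higher (0.78, adjusted p = 0.0306). Synpo2, a Z-disc partner of filamin, was called lower in that fit (-0.50, adjusted p = 0.0343). Of the libraries left out, follistatin day 14 replicate 2 held 24.6 FPKM of Xirp1, below all controls (28.8 to 32.9 FPKM). Follistatin day 7 replicate 1 held 42.5 FPKM, and the follistatin libraries kept held 46.2 and 59.5 FPKM. With centring by length Pgm5 was called lower (adjusted p = 0.0491).

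Among 8 genes of chaperone-assisted autophagy, the route by which damaged filamin is cleared in muscle, Hspb8 rose and Sqstm1 fell at day 3. Hspb8, a small heat shock protein, had 297 to 311 FPKM in follistatin libraries of day 3, against 168 to 209 FPKM in controls (0.76, adjusted p = 0.00641). At days 7 and 14 Hspb8 had 412 and 501 FPKM in follistatin libraries of day 7 and 850.2 and 980 FPKM in those of day 14, against 187, 204 and 210.1 FPKM in controls (1.68, adjusted p = 0.0238). Sqstm1, the autophagy receptor p62, averaged 208 ± 7.79 FPKM in follistatin libraries of day 3 (SD, n = 4) and 279 ± 10.6 FPKM in controls (SD, n = 3; -0.42, adjusted p = 0.0133). The call of Sqstm1 was lost with any 1 control left out, while that of Hspb8 at day 3 held with each library left out. Hspa8 rose and Map1lc3b fell in the chronic set, at 0.57 (adjusted p = 0.0167) and -0.60 (adjusted p = 0.028) on the log2 scale. None of the 3 chronic calls remained with any 1 control left out, those of Hspb8 and Map1lc3b were lost also without follistatin day 14 replicate 1, and that of Map1lc3b without follistatin day 7 replicate 2. Without control day 7 replicate 1, only 43 genes of all those tested were called. Without both shifted libraries a further gene of the list, Synpo2, was called lower.

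Of 18 other Z-disc and costamere genes tested at day 3, Pdlim3 was called higher, at 235 to 293 FPKM in follistatin libraries and 184 to 190 FPKM in controls (0.51, adjusted p = 0.0272), and 10 had an unadjusted p under 0.05, where 15.2% of all genes stood. The Pdlim3 call held under 8 of 18 alternatives, and was lost with median-ratio rescaling, with quantile normalization, with any 1 control left out and without follistatin replicate 1 or 3. The median of the list was 0.16. Of 16 tested in the chronic set, Cryab (1.18, adjusted p = 0.0334) and Pdlim7 (0.69, adjusted p = 0.0429) rose and Nexn fell (-0.73, adjusted p = 0.0228), and 0 of these passed with any 1 control left out. Without follistatin day 14 replicate 1 only Nexn passed, without follistatin day 7 replicate 2 or day 14 replicate 2 Pdlim7 did not, and without both shifted libraries 3 were called higher and 2 lower. Over all genes, 43 were called without control day 7 replicate 1, and 1216 without both shifted libraries. Cryab, a small heat shock protein that guards desmin and actin, averaged 1157 ± 380 FPKM in chronic follistatin libraries (SD, n = 4) and 492 ± 7.30 FPKM in controls (SD, n = 3).

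**Figure D4:**
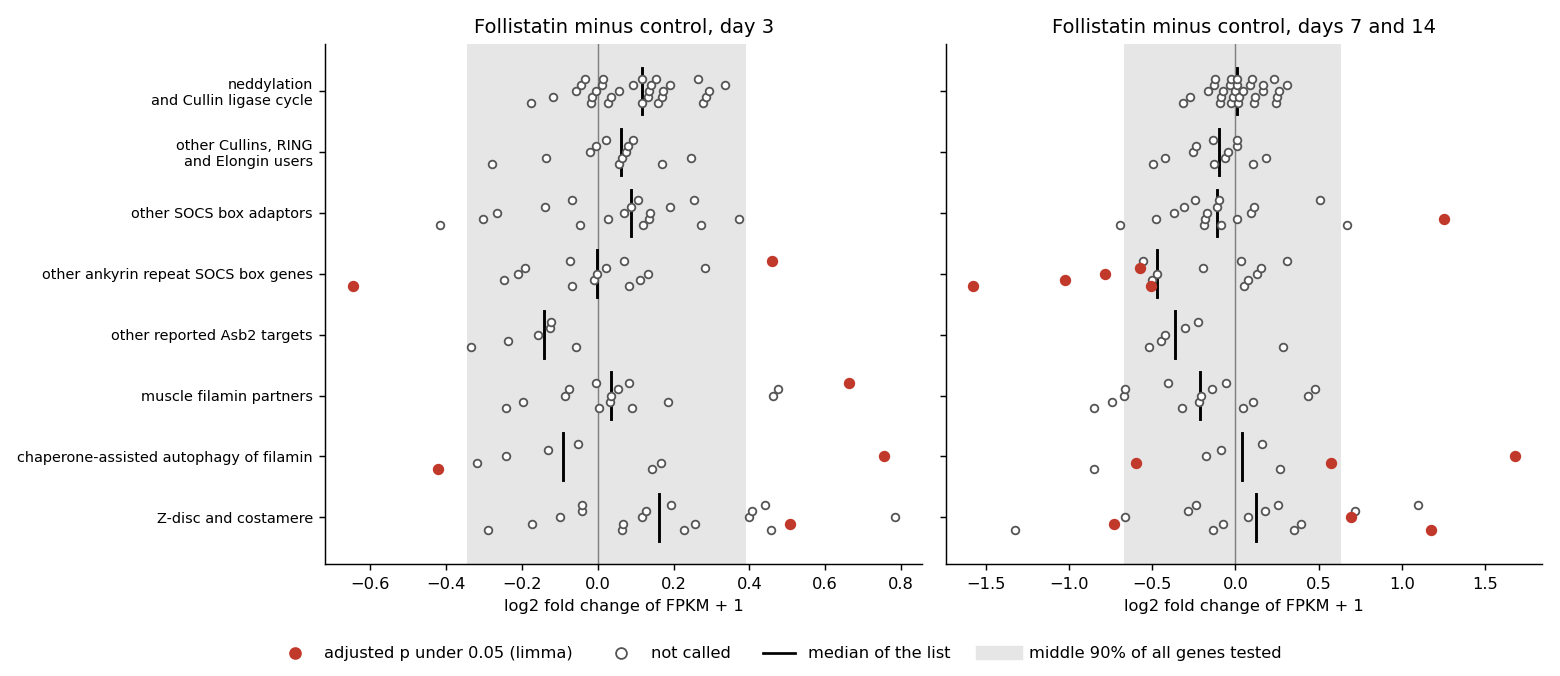
Log2 fold changes (horizontal axes) of the genes tested in each of 8 lists around Asb2, Cullin ligases and filamins at day 3 (left) and at days 7 and 14 (right), with called genes in red, list medians as black bars and the middle 90% of all genes in grey. The first 2 lists hold no called gene, and the 5 called genes of the ankyrin repeat SOCS box list in the chronic set all lie below 0.

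The genes whose pattern was most like that of Asb2 were sought among 10112 genes by Pearson's r of log2(FPKM + 1) over the 14 libraries. The highest were Rab11fip3, an adaptor of recycling endosomes (r = 0.979), Kcnj11, the pore of the ATP-sensitive potassium channel (0.975), Ctdsp2, a phosphatase (0.934), Ulk1, the kinase that starts autophagy (0.925), and Mpp3, a membrane scaffold (0.923). The lowest were Casq2, the calcium buffer calsequestrin (-0.933), Rars2, the mitochondrial arginyl-tRNA synthetase (-0.928), Synpo2l, a Z-disc protein (-0.928), Wdr77, a methylosome subunit (-0.918), and Rpf2, a ribosome assembly factor (-0.911). The points share 2 treatments and 2 sets, so any gene that separates the treatments scores high, and the values are a description. Rab11fip3 averaged 13.5 ± 1.19 FPKM in follistatin libraries of day 3 (SD, n = 4) and 28.3 ± 2.40 FPKM in controls (SD, n = 3), and 15.0 ± 0.715 FPKM in follistatin libraries and 33.8 ± 2.33 FPKM in controls of the chronic set. Casq2 ran the other way, at 65.0 ± 12.7 FPKM in follistatin libraries of day 3 and 33.1 ± 4.65 FPKM in controls, and at 65.9 ± 14.5 FPKM in follistatin libraries and 25.7 ± 4.37 FPKM in controls of the chronic set. Rab11fip3, Kcnj11, Ulk1, Mpp3 and Casq2 were called in both sets, while Ctdsp2 was called in the chronic set (adjusted p = 0.0235) and not at day 3 (0.0812), and Synpo2l at day 3 (0.0265) and not in the chronic set (0.0954); these differences between the sets were not tested. With single libraries left out, Rab11fip3, Mpp3 and, at day 3, Ulk1 stayed called, while Kcnj11 in both sets, Ulk1, Casq2 and Ctdsp2 in the chronic set, and Casq2 and Synpo2l at day 3 lost the call without 1 or more controls. Casq2 and Synpo2l at day 3 also lost it without follistatin replicate 1, 2 or 3, and Ctdsp2 in the chronic set without follistatin day 14 replicate 1. Rars2, Wdr77 and Rpf2 had adjusted p-values between 0.0555 and 0.0943.

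**Figure D5:**
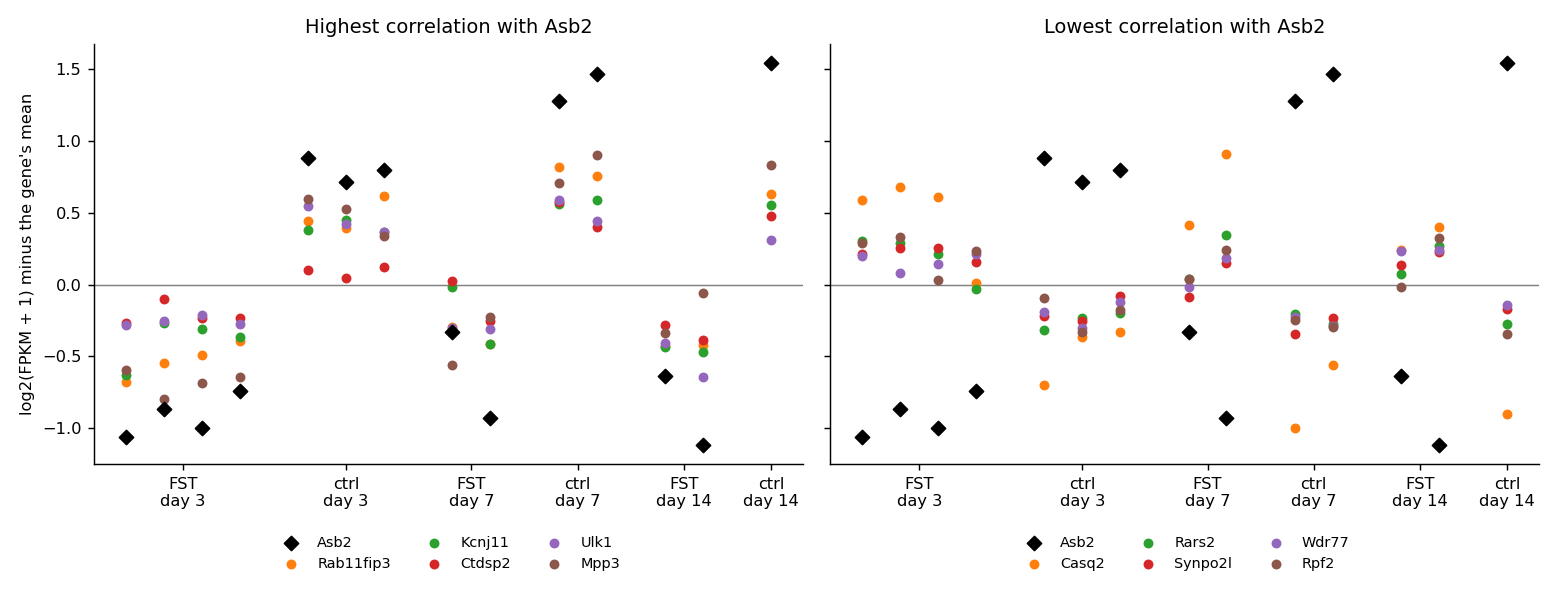
Log2(FPKM + 1) minus each gene's own mean (vertical axis) in the 14 libraries, grouped by day with follistatin (FST) left of control (ctrl), for Asb2 (black diamonds) and the 5 genes with the highest (left) and lowest (right) correlation with it. Asb2 spans the widest range, and the genes on the right lie on the other side of their mean in most libraries.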

How the data were processed

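Poly(A) RNA of tibialis anterior muscle was sequenced in 14 libraries, prepared with an Illumina TruSeq kit per the labels. Per the submitters' processing notes, the authors used TopHat, Cuffdiff and the mm10 build (versions not given in the sources used here). The deposited library files hold FPKM per gene, and 2 deposited tables hold the authors' log2 fold changes, p-values and q-values. Of 24386 rows, 27 whose symbols had become dates were left out. Genes that the authors marked HIDATA (4 at day 3, 31 in the chronic set) were not tested, and no followed gene was among them.

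Read counts were not used here, so depth is unknown. From the steps between low values, the day 3 libraries had 0.685 to 1.27 times the depth of control replicate 1, with 79.2% to 83.7% of values under 0.5 FPKM on such steps within 0.02 on the log2 scale. Chronic libraries did not resolve such steps (52.9% to 62.9% of values). Replicates of a group correlated at r = 0.971 to 0.978 across genes.

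The limma package (3.58.1, R 4.3.3; lmFit and eBayes with trend, two-sided) was run on log2(FPKM + 1) within each set, follistatin minus control, on genes averaging 1 FPKM or more. Calls were made where the p adjusted by Benjamini-Hochberg was below 0.05. Adding 1 understates changes of low genes. The difference of both effects was an interaction over 14 libraries. Transcript lengths and positions came from GENCODE M21. Near-identical transcripts were sought with BLAST 2.17.0. Promoter sequence came from RefSeq, and 6 of the 7 genes had an entry.

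The genes and lists were chosen with earlier results of these data known. Named genes are the 7 genes, up to 3 called genes per list, set and direction with the largest log2 fold change, and the 5 most and 5 least like Asb2. Des, Dcun1d1, Socs7, Asb12, Synpo2, Pgm5, Srrm2, Emb and Gm16124 are named beyond this rule, after their values were seen, and 1 gene of the list of reported Asb2 substrates is not reported here. Alternatives were other pseudocounts, filters and scalings, robust eBayes, small RNA genes left out, HIDATA genes kept, single libraries left out, a replicate block, 1 fit of all libraries, and day as a covariate or day 7 alone. Centring in 10 bins of transcript length, leaving out both shifted libraries, and the recounts of the lists were chosen after seeing the data. The fits were first tested on simulated data.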

Additional observations from a re-analysis of the deposited data

Results flagged for a closer look

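Among the 4 follistatin libraries of a set, 1 library lay far from the other 3 in 5 of 62 groups examined (31 genes named here, 2 sets). The distance was judged against the range of the 4 libraries, so a small gap in FPKM can be flagged. Chance alone marks about 1 in 20 such groups. In the chronic set Rnf7 stood at 106 FPKM in follistatin day 14 replicate 2, whose short transcripts were high, against 76.1 to 81.2 FPKM in the other 3. In that set Kcnj11 stood at 33.8 FPKM in follistatin day 7 replicate 1, above the other 3 libraries at 24.4 to 25.4 FPKM. Rab11fip3 stood at 16.0 FPKM in the same library, a small step above the other 3 at 14.5 to 14.7 FPKM. At day 3 Cryab stood at 659 FPKM in follistatin replicate 3, above the other 3, and Casq2 at 46.2 FPKM in follistatin replicate 4, below the other 3. Asb2, Cul5, Tceb1, Tceb2, Flna and Flnc had no such library in either set. A cause was not tested for any of them.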

How the results depend on the processing

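The Asb2 fall kept its direction and its call under all 18 alternatives at day 3 (-1.77 to -1.67, adjusted p at most 0.00899) and under 20 of 21 in the chronic set, with every library left out in turn among them (-2.32 to -2.06). With the day 7 libraries alone it was -2.001 (adjusted p = 0.0714), 30 genes and 0 of the 7 followed genes were called, Rnf7 came to -0.027 and Tceb1 to -0.0090; this fit has 2 libraries a group. Cul5, Tceb1 and Rnf7 at day 3, Flnc at day 3, and Cul5 and Flna in the chronic set kept their direction, uncalled, under all alternatives. Values near 0 changed sign. At day 3 Flna came to -0.0032 with median-ratio rescaling, -0.025 with quantile normalization and -0.0068 with centring by length, and lay between -0.071 (without follistatin replicate 2) and 0.11 with single libraries left out, below 0 also without control replicate 2 or 3. Tceb2 at day 3 lay between -0.12 and 0.065, above 0 without control replicate 2 or follistatin replicate 4. In the chronic set Rnf7 lay between -0.023 (without follistatin day 14 replicate 2) and 0.14. Without both libraries with a length shift, Rnf7 came to -0.0048 and Tceb2 to -0.038, and 1216 genes were called. With centring by length, 2 of the 7 genes were called in the chronic set, Asb2 and Flnc.

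In the difference of effects Rnf7 came to 0.13 with median-ratio rescaling and 0.046 with quantile normalization, Tceb1 to 0.086 with the first, and with single libraries left out Rnf7 lay between -0.11 and 0.046, Tceb1 between -0.19 and 0.074 and Flnc between -0.059 and 0.17. None of the 7 genes was called there by limma under any of the 25 alternatives. The number of genes called, 168, 608 and 10, moved more. Without small RNA genes it was 266 at day 3 and 964 in the chronic set, with no filter 284 in the chronic set and 2 in the difference, with all 14 libraries in 1 fit 2071 in the chronic set, with HIDATA genes kept 24 and with median-ratio rescaling 6 in the difference. With single libraries left out it ranged from 39 (without control replicate 1) to 165 at day 3, from 43 (without control day 7 replicate 1) to 907 in the chronic set and from 2 to 32 in the difference. The cause was not tested. Among lists with no chronic call, that fit of all 14 libraries called 1 gene higher and 1 lower of the neddylation cycle, and, lower, 1 of the other Cullins, 3 reported Asb2 substrates, 4 muscle filamin partners and 7 smooth muscle markers.

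No pairing by replicate number was seen at day 3. Deviations of same-numbered libraries correlated at -0.056 to -0.033 there, and those of other numbers at -0.067 to 0.089. At day 7 the values were 0.014 and -0.014. With 2 libraries a group these can differ only in sign, so that day says little. Pairing under other numbers was not tested. With the replicate block 19 genes were called at day 3, 164 in the chronic set and 3 in the difference, Tceb2 at day 3 came to 0.043 and Rnf7 in the chronic set to -0.023, and Asb2 stayed called (-1.77 and -2.06, adjusted p = 0.00899 and 0.029). Without read counts, the precision of low values is unknown, and intervals as wide as those of the ligase partners and filamins leave moderate differences undetected.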
